A study of Caenorhabditis elegans with 18 samples.

Results

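F59C6.18 and Y49G5A.1 are 2 of the 20505 C. elegans gene models listed in each library, and 1 row was found for each. They were picked because they were nearly without counts in all 6 lin-65 libraries and higher in met-2 than in N2. The strain differences therefore chose them, and their strain differences are given below as a description with no test. In the WBcel235 annotation (Ensembl 115), matched by sequence name, F59C6.18 (WBGene00206464) lies on the minus strand of chromosome I, from base 10516102 to 10516428. It is annotated as a protein-coding gene with 1 exon of 327 bases and a coding length of 324 bases, which is 108 codons. Y49G5A.1 (WBGene00021731) lies on the minus strand of chromosome V, from base 5286343 to 5287373. It is annotated as protein-coding with 4 exons, a transcript of 626 bases and 182 codons. No other annotated gene overlaps either of them (0 for each). The genome build behind the counts is not given in the sources used here.

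RNA was measured from whole worms collected at the L4 larval stage after growth from hatch at 20C, with 3 libraries in each of 6 groups. The N2 strain is the standard wild type, and each mutant is represented by 1 allele, n3441 for lin-65 and ok2307 for met-2. Every strain was fed bacteria with empty vector alone, or the same bacteria mixed with those for cco-1 RNAi, which targets a nuclear gene for a cytochrome c oxidase subunit (now cox-5B). The labels do not say whether the replicates were separate cultures, so p-values measure the spread between these samples, and in bulk samples fewer cells of a type and less RNA per cell cannot be told apart.

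MET-2 is a methyltransferase that places methyl groups on lysine 9 of histone H3, a mark of silent heterochromatin that gathers at the nuclear edge. LIN-65 is a partner protein of MET-2, and loss of either lowers this mark. The study asks how mitochondrial stress from loss of cytochrome c oxidase changes chromatin and gene expression, and both proteins are known from such work on the mitochondrial stress response. Genes silenced by the mark can become active when it is lost.

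Totals ran from 5141303 to 19261705 counts per library, so that 3 counts correspond to 0.156 to 0.584 CPM (the usual scaling of a count to its library total). The RNAi target cox-5B had 627 to 706 CPM in N2 on empty vector and 304 to 329 CPM on cco-1 RNAi, and it was lower on RNAi than on empty vector in each mutant as well. Transcripts of lin-65 had 5.62 to 9.28 CPM in lin-65 worms on empty vector against 11.44 to 13.4 CPM in N2. Transcripts of met-2 had 12.7 to 23 CPM in met-2 worms on empty vector against 35.3 to 40.2 CPM in N2. All 15 listed markers of intestine, muscle, hypodermis, neurons and germline had counts in every library. The library lin-65 empty vector replicate 1 carries N2 in its strain field but lin-65(n3441) in its title and source, and it was grouped by its title. The lowest mean correlation with the other libraries of the group (log2 CPM) was 0.892, for met-2 cco-1 RNAi replicate 1, and next was 0.920, for lin-65 empty vector replicate 1. Some results below that rest on these libraries are also given without them. Others, such as group means, ranks and the met-2 to lin-65 ratio, are given only with them.

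F59C6.18 was expressed in N2, nearly absent from lin-65 worms and several times higher in met-2 worms. On empty vector its counts were 164, 261 and 518 in the 3 N2 libraries, 9, 5 and 7 in lin-65, and 2956, 2367 and 1615 in met-2. On cco-1 RNAi they were 429, 234 and 819 in N2, 7, 5 and 13 in lin-65, and 6392, 3925 and 1404 in met-2. Scaled to library totals, N2 had 22.1 ± 5.37 CPM on empty vector (SD, n = 3) and 38.0 ± 6.83 CPM on cco-1 RNAi. The lin-65 worms had 0.536 ± 0.223 CPM and 0.872 ± 0.469 CPM in the same order of diets. The met-2 worms had 150.2 ± 29.4 CPM and 281 ± 125 CPM. The 3 strains did not overlap on either diet: the highest lin-65 library stood at 1.36 CPM, the N2 libraries between 16.3 and 44.4 CPM, and the lowest met-2 library at 118 CPM.

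Y49G5A.1 followed the same order of strains at a lower level. On empty vector its counts were 53, 84 and 210 in N2, 5, 2 and 2 in lin-65, and 676, 476 and 427 in met-2. On cco-1 RNAi they were 74, 66 and 159 in N2, 0, 1 and 3 in lin-65, and 1007, 483 and 132 in met-2. In N2 its mean level was 7.88 ± 2.85 CPM on empty vector (SD, n = 3) and 8.01 ± 1.12 CPM on cco-1 RNAi. In lin-65 it was 0.233 ± 0.162 CPM, then 0.0921 ± 0.0955 CPM, and in met-2 it was 34.3 ± 4.95 CPM, then 37.7 ± 25.4 CPM. The strains were again fully separated on each diet. The met-2 libraries on cco-1 RNAi spread widely, from 15.95 to 65.5 CPM, and the lowest of them lay above the highest N2 library on that diet, at 8.69 CPM.

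Tissue markers also moved with strain. The summed level of the 3 germline markers ran from 630 to 795 CPM in N2 on empty vector, from 823 to 937 CPM in lin-65 and from 543 to 571 CPM in met-2, so the strains were separated in the order opposite to that of F59C6.18 and Y49G5A.1. Under RNAi the same markers had 634 to 698, 936 to 1049 and 483 to 626 CPM, again without overlap when scaled to library totals. TMM factors, which allow for library composition, ran from 1.06 to 1.09 in N2 and from 0.904 to 0.957 in met-2 under RNAi. Divided by these factors, the germline sums of N2 and met-2 would overlap on that diet. The 3 neuronal markers summed to 43.1 to 45.9 CPM in N2 on empty vector and 58.1 to 70.0 CPM in met-2, and the lin-65 range (28.4 to 56.3 CPM) overlapped that of N2. The 2 muscle markers (1592 to 1995 CPM in N2, 1844 to 3547 CPM in met-2) and the intestinal and hypodermal sums overlapped between N2 and met-2 on empty vector. Under RNAi the intestinal sum ran from 698 to 761 CPM in lin-65, 793 to 832 CPM in N2 and 918 to 1216 CPM in met-2. The strains were thus separated on that diet in the same order as for the 2 genes. On empty vector the intestinal sums of the 3 strains overlapped, and the mean was highest in lin-65. They ran from 877 to 1276 CPM in lin-65, 696 to 916 CPM in N2 and 858 to 1059 CPM in met-2. The muscle, hypodermal and neuronal sums overlapped between N2 and met-2 under RNAi. The share of all models with the 3 strains separated in either order was not counted, and a sum can rest on 1 of its markers. The part of these markers in the levels of the 2 genes was not tested.

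**Figure D1:**
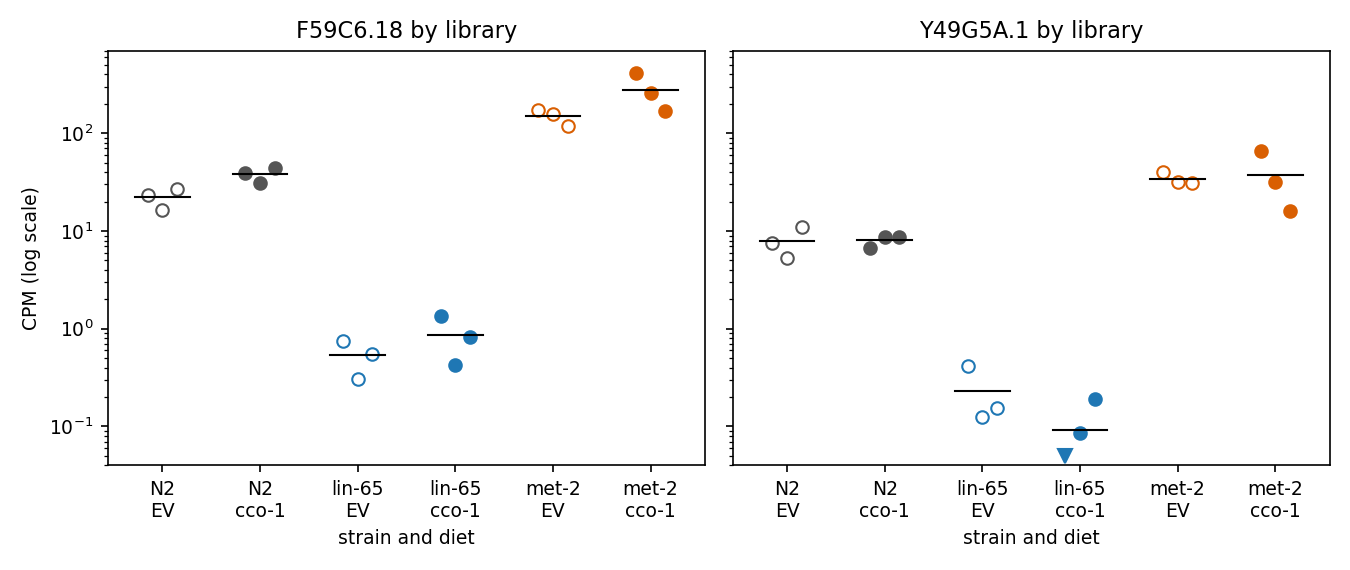
CPM of F59C6.18 and Y49G5A.1 in each of the 18 libraries on a log scale, by strain and diet (EV, empty vector, open points; cco-1 RNAi, filled points). Bars are group means, and the triangle at the lower edge is a library with 0 counts. Each lin-65 library lies at or below 1.36 CPM, and the met-2 libraries lie above the N2 libraries for both genes.

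As ratios of counts pooled over 3 libraries, F59C6.18 was 43.4 times higher in N2 than in lin-65 on empty vector (95% exact interval 28.2 to 70.4, which covers counting error only), and 53.8 times without lin-65 empty vector replicate 1. On cco-1 RNAi this ratio was 52.1 (35.1 to 80.8). Between met-2 and N2 it was 6.83 (6.38 to 7.32) on empty vector and 7.52 (7.12 to 7.94) on cco-1 RNAi. Without met-2 cco-1 RNAi replicate 1 the last ratio was 5.64. The distance from lin-65 to met-2 was thus far larger than either distance to N2, at 296 times (194 to 479) on empty vector.

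The pooled ratios of Y49G5A.1 were of similar size. Between N2 and lin-65 the ratio was 37.3 (19.4 to 82.2) on empty vector and 65.7 (25.4 to 243) on cco-1 RNAi, the latter resting on 4 counts in lin-65. It was 136 without lin-65 cco-1 RNAi replicate 3, which holds 3 of these 4 counts. On empty vector it was 59.4 without lin-65 empty vector replicate 1, which holds 5 of the 9 counts. Between met-2 and N2 it was 4.22 (3.76 to 4.76) on empty vector and 5.16 (4.56 to 5.85) on cco-1 RNAi, and 3.23 without met-2 cco-1 RNAi replicate 1. With TMM-scaled library sizes (factors that allow for library composition) the met-2 to N2 ratios on cco-1 RNAi were 8.63 for F59C6.18 and 5.92 for Y49G5A.1.

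Over all 15110 gene models that passed the filter on low counts, to which both genes belong, edgeR's quasi-likelihood test called 1.42% different in lin-65 against N2 on empty vector (adjusted p under 0.05) and 1.11% on cco-1 RNAi. For met-2 against N2 it called 30.5% and 20.8%. Full separation of libraries was also common: every met-2 library lay above every N2 library for 28.3% of models with the control bacteria and 13.7% under RNAi. The N2 libraries all lay above the lin-65 libraries for 4.18% and 9.18%. Nothing is read from these shares about the 2 genes, which were chosen for these differences.

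Per kilobase of annotated transcript, F59C6.18 was the more abundant of the 2 genes in each group. It had 67.6 ± 16.4 CPM per kilobase in N2 on empty vector and 459 ± 89.9 in met-2, against 12.6 ± 4.55 and 54.8 ± 7.91 for Y49G5A.1. In N2 on empty vector F59C6.18 stood above 90.9% of the 20074 annotated gene models on this scale, in lin-65 above 38.9% and in met-2 above 98.2%. Y49G5A.1 stood above 70.0%, 26.2% and 90.3% of models in the same 3 groups. In met-2 worms F59C6.18 was thus among the 352 most abundant models, and on cco-1 RNAi it ranked 227th. In order of mean level its groups ran from lin-65 on empty vector, lin-65 on cco-1 RNAi, N2 on empty vector, N2 on cco-1 RNAi and met-2 on empty vector to met-2 on cco-1 RNAi. Of these neighbouring groups, the 2 lin-65 groups overlapped and the 2 met-2 groups overlapped. For Y49G5A.1 the 2 diets overlapped within every strain.

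The effect of cco-1 RNAi within a strain was not used to choose the genes, and neither gene passed the test for it in any strain. In N2, F59C6.18 had 16.3 to 26.9 CPM on empty vector and 30.8 to 44.4 CPM on cco-1 RNAi, groups that did not overlap. This gap rests on scaling to library totals, as does the share given next. With TMM-scaled library sizes the highest empty vector library had 28.2 CPM and the lowest RNAi library 28.4 CPM, so the groups nearly touched. Full separation in this direction was found for 29.9% of all models tested, and the log2 fold change of 0.60 ± 0.33 (SE) had an adjusted p of 0.339 by edgeR. The background for this comparison was 0.841% of models called (127), and 200 models with the replicate numbers as a block, where F59C6.18 had an adjusted p of 0.236. In met-2, F59C6.18 had 118, 158 and 175 CPM on empty vector and 170, 256 and 416 CPM on cco-1 RNAi, and the groups overlapped slightly. The log2 fold change there was 0.92 ± 0.33 (edgeR adjusted p 0.295), with 1.11% of all models called. It was 0.46 without met-2 cco-1 RNAi replicate 1, the highest library.

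In the fit of all 18 libraries, Y49G5A.1 showed smaller differences between the diets than F59C6.18 in N2 and met-2. In N2 the log2 fold change was -0.16 ± 0.43 (edgeR adjusted p 0.850), with 5.25 to 10.9 CPM on empty vector and 6.71 to 8.69 CPM on cco-1 RNAi. Its sign turned, to 0.15, without N2 empty vector replicate 3. In met-2 it was 0.16 ± 0.41 (adjusted p 0.927), and -0.57 without cco-1 RNAi replicate 1. In lin-65 the counts were too few for a useful estimate: the log2 fold change was 0.38 ± 0.54 for F59C6.18 (adjusted p 0.764) and -1.04 ± 0.98 for Y49G5A.1 (adjusted p 0.651), where 0.715% of all models were called.

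The response to cco-1 RNAi was also compared between met-2 and N2 in the same model. The met-2 response exceeded the N2 response by 0.32 ± 0.47 on the log2 scale for F59C6.18 (edgeR adjusted p 0.709) and by 0.32 ± 0.59 for Y49G5A.1 (adjusted p 0.771). Both differences fell below 0, to -0.15 and -0.41, without met-2 cco-1 RNAi replicate 1. In this comparison 0 of 15110 models were called by edgeR (0%), with 2603 at an unadjusted p under 0.05, and DESeq2 called 153. A difference of response between the strains was not detectable for either gene with 3 libraries per group.

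In the N2 and met-2 libraries the balance between the 2 genes, which does not depend on library size, differed between the diets. This ratio was chosen after its values were seen and carries no test. On empty vector the N2 libraries had 3.09, 3.11 and 2.47 F59C6.18 counts per Y49G5A.1 count, and on cco-1 RNAi they had 5.80, 3.55 and 5.15. In met-2 the ratio was 4.37, 4.97 and 3.78 on empty vector and 6.35, 8.13 and 10.6 on cco-1 RNAi. The libraries of the 2 diets did not overlap in either strain, and those of N2 and met-2 on the same diet did not overlap either. How many other pairs of models separate in this way was not counted. Among single models, 29.9% had every N2 library on cco-1 RNAi above every N2 library on empty vector. That share is of levels scaled to library totals, so it is no background for the ratio, for met-2 or for the strain comparison. The widely spread met-2 libraries on cco-1 RNAi thus differed less in the balance of the 2 genes than in their levels, which ranged from 15.95 to 65.5 CPM for Y49G5A.1. In lin-65 the ratio was 1.8, 2.50 and 3.50 on empty vector, and 5.00 and 4.33 in the RNAi libraries with a Y49G5A.1 count, all from few counts.

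**Figure D2:**
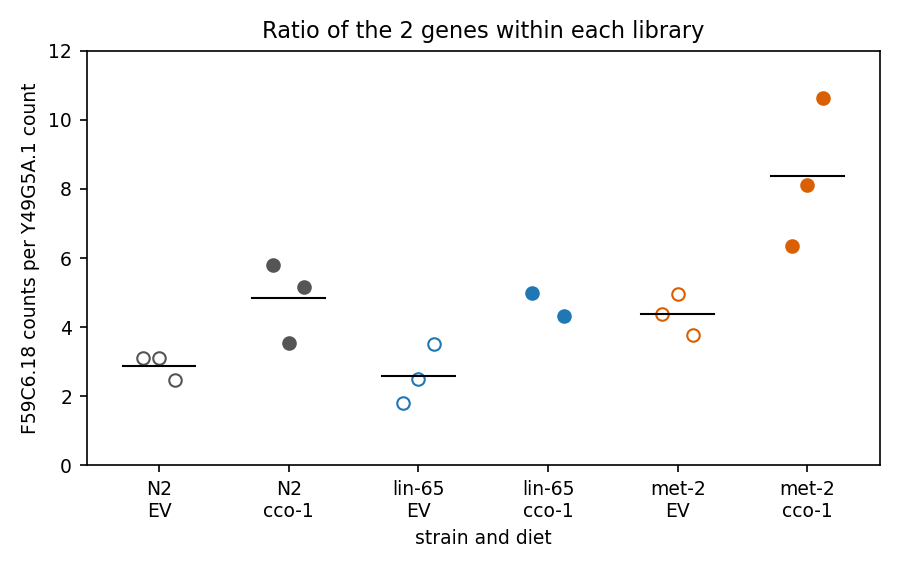
Counts of F59C6.18 divided by counts of Y49G5A.1 in each library, by strain and diet (open points, empty vector; filled points, cco-1 RNAi), with bars at the means of groups with 3 values. In N2 the RNAi libraries (3.55 to 5.80) lie above the control libraries (2.47 to 3.11), and in met-2 likewise (6.35 to 10.6 against 3.78 to 4.97). The lin-65 RNAi library with 0 Y49G5A.1 counts is not drawn.

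Among the nearest listed gene models on the chromosomes, none was called lower in lin-65 and higher in met-2. Of the 5 models on each side of each gene, 20 in all, 17 passed the filter on low counts (9 around F59C6.18 and 8 around Y49G5A.1). In lin-65 against N2, edgeR called 0 of the 17 on either diet, beside 1.42% of all models on empty vector and 1.11% under RNAi. There were 3 at an unadjusted p under 0.05 on empty vector and 2 under RNAi. DESeq2 called 1 with the control bacteria (ndub-10, a subunit gene of mitochondrial complex I) and 0 under RNAi. Without the 2 libraries that stand apart edgeR called 1 on empty vector, F59C6.16 (log2 fold change -1.65, adjusted p 0.00518), and with a replicate block 1 under RNAi, C10G8.4 (-2.57, adjusted p 0.0398). Both were also called lower in met-2 on empty vector. The lowest fitted log2 fold changes were -1.26 on empty vector and -2.33 under RNAi, both for C10G8.4. The medians were 0.15 and -0.15, beside 0.06 and 0.01 over all models.

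Around F59C6.18, the ciliary transport gene che-13 lies 515 bases away, and its level was 0.964 CPM in N2, 1.57 CPM in lin-65 and 1.43 CPM in met-2 on empty vector. The neuropeptide gene nlp-4, on the other side at 892 bases and on the same strand, had 11.7, 20.3 and 7.07 CPM. The exosome gene exos-3, at 1950 bases, had 29.8, 32.2 and 28.1 CPM. No level of these 3 genes differed between strains by as much as F59C6.18 did. In met-2 against N2 on empty vector tag-68 rose by 2.08 ± 0.54 on the log2 scale (edgeR adjusted p 0.00990). F59C6.16 fell (-1.33 ± 0.46, adjusted p 0.0377), a call lost when either N2 empty vector replicate 1 or 2 or any 1 of the met-2 empty vector libraries was left out (adjusted p 0.0571 to 0.132). On cco-1 RNAi 0 of the 9 were called in met-2 against N2 by edgeR, beside 20.8% of all models, with a smallest adjusted p of 0.183.

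Around Y49G5A.1 the nearest listed model is 8241 bases away, and several of the listed models changed in met-2, in both directions. The sodium/calcium exchanger gene ncx-2 had 13.99 ± 2.76 CPM in N2 and 96.1 ± 6.48 CPM in met-2 on empty vector (log2 fold change 2.80 ± 0.55, edgeR adjusted p 0.00195), and 16.6 ± 10.6 CPM in lin-65. On cco-1 RNAi it was not called in met-2, with 40.2 ± 7.74 CPM in N2 and 82.8 ± 66.2 CPM in met-2. The log2 fold change there was 1.22 ± 0.52 (edgeR adjusted p 0.104). B0238.12 rose in met-2 as well, by 1.83 ± 0.43 on empty vector (adjusted p 0.00565) and by 1.44 ± 0.42 on cco-1 RNAi (adjusted p 0.0220, but 0.0584 to 0.113 without any 1 of the N2 cco-1 RNAi libraries or met-2 cco-1 RNAi replicate 1). In the opposite direction C10G8.4 had 5.08 ± 2.69 CPM in N2 and 0.471 ± 0.397 CPM in met-2 on empty vector (-3.42 ± 0.73, adjusted p 0.00369). On cco-1 RNAi C10G8.4 had 92 counts over the N2 libraries and 0 in all 3 met-2 libraries, at least 32.3-fold lower (against a floor of 3 counts over the group). The gene penr-1 fell in met-2 on cco-1 RNAi (log2 fold change -1.47 ± 0.30, adjusted p 0.00251). On empty vector its value was -0.80 ± 0.29 (adjusted p 0.0478), a call lost without any 1 of 11 libraries: the 6 N2 libraries, lin-65 empty vector replicate 2, lin-65 cco-1 RNAi replicates 1 and 2, and met-2 empty vector replicates 1 and 3 (adjusted p 0.0513 to 0.188). In all, 6 of 17 models were called in met-2 on empty vector (3 higher, 3 lower) beside 15.3% of all models higher and 15.3% lower, and 3 of 17 on cco-1 RNAi (1 higher, 2 lower) beside 11.2% and 9.59%. DESeq2 called 7 and 4, and without the 2 libraries that stand apart edgeR called 9 and 4.

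**Figure D3:**
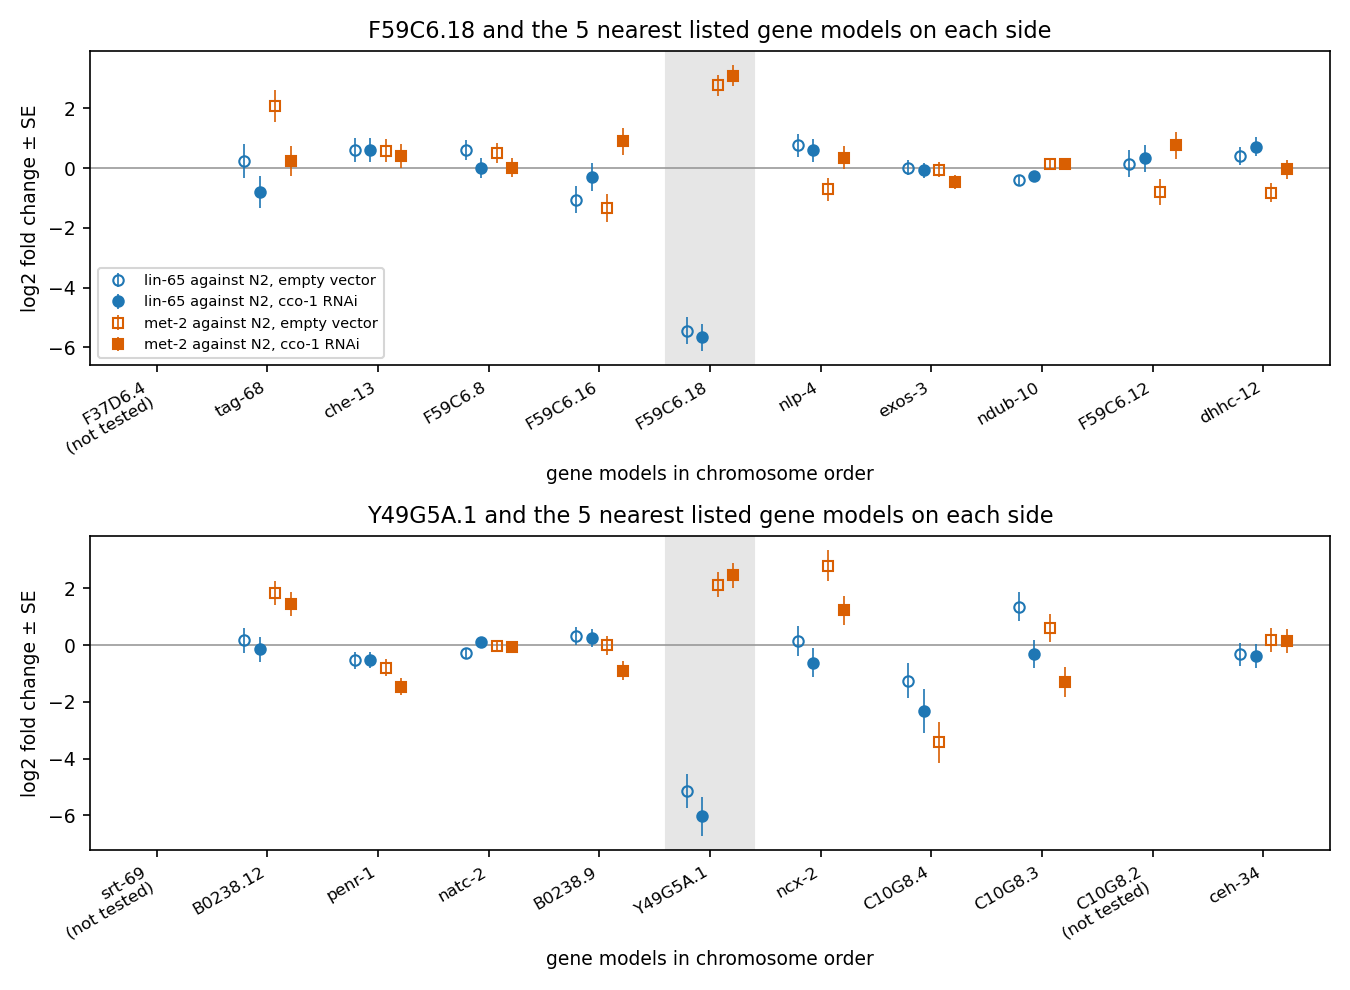
Log2 fold change against N2 (± SE, edgeR) for F59C6.18, Y49G5A.1 and the 5 nearest listed gene models on each side, in chromosome order and not to distance (circles, lin-65; squares, met-2; open, empty vector; filled, cco-1 RNAi). Both shaded genes lie below -5 in lin-65 and above 2 in met-2, and no tested neighbour shows both. The met-2 RNAi value of C10G8.4, fitted on 0 counts, is not drawn.

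Strong loss in lin-65 was rare among all gene models. Of 13517 models with a mean of at least 1 CPM in N2, 10 had a lin-65 mean at or under 0.1 of the N2 mean, which is 0.0740%. Y49G5A.1 (0.0205) and F59C6.18 (0.0234) had the lowest ratios of these 10. Both were chosen for this strain pattern, so their rank is a description and carries no test. Only 3 of the 10 were at least 1.5 times N2 in met-2: these 2 genes and F57G8.7, whose ratios to N2 were 0.0838 in lin-65 and 3.26 in met-2. The other 7 were low in met-2 too, at 0.0542 to 0.177 of N2: R03D7.2, Y69A2AR.12, cin-4, dhs-26 and 3 members of the vitellogenin family of yolk proteins, vit-3, vit-4 and vit-5. The N2 libraries varied widely in the vitellogenin genes, from 38.3 to 588 CPM for vit-3, from 41.0 to 467 CPM for vit-4 and from 171 to 727 CPM for vit-5, and reads of such near-identical genes may be split uncertainly. Without the 2 libraries that stand apart 9 models were this low in lin-65, 3 of them high in met-2. In met-2 16.2% of the 13517 models were at least 1.5 times N2. Just outside the limits were C36C5.12 (0.136 in lin-65, 2.93 in met-2), T20D4.4 (0.170 and 2.32) and exh-1 (0.201 and 2.10).

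**Figure D4:**
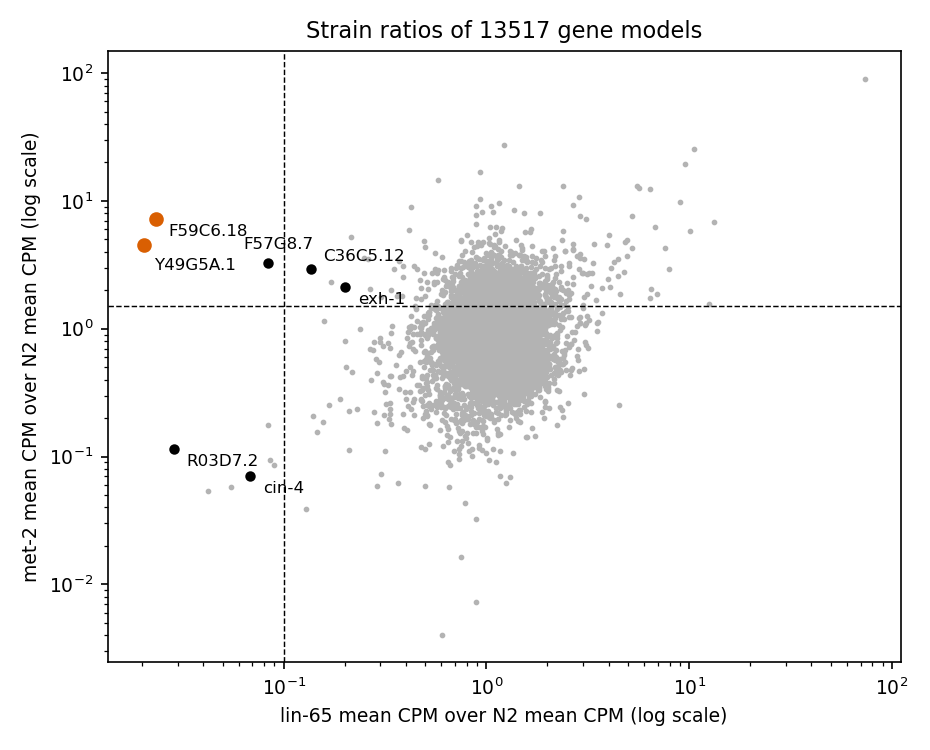
Ratio of mean CPM to the N2 mean in lin-65 (x axis, log scale) and in met-2 (y axis, log scale), each over 6 libraries, for 13517 gene models (points). Dashed lines mark 0.1 and 1.5; orange points are F59C6.18 and Y49G5A.1. They lie at the far upper left, at 0.0234 and 7.16 and at 0.0205 and 4.53, and F57G8.7 (0.0838 and 3.26) is the only other model past both lines. The 2 genes were chosen for these strain differences, so their place is a description only.

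The models with the most alike profiles were found by Pearson's r of log2 CPM over the 18 libraries, among 13738 other models with a mean of at least 1 CPM. For F59C6.18 they were exh-1 (r = 0.980), Y49G5A.1 itself (0.977), F57G8.7 (0.975), the annotated pseudogene T28A11.6 (0.965) and C36C5.12 (0.964). For Y49G5A.1 they were C36C5.12 (0.988), exh-1 (0.979), F59C6.18 (0.977), F57G8.7 (0.970) and the annotated pseudogene W06A11.4 (0.958). These values describe likeness only, since all 18 points share the strains and diets. Within the 6 N2 libraries r between the 2 genes was 0.474, and within the 6 met-2 libraries 0.620. Without the 2 libraries that stand apart, 4 of the 5 models stayed on each list.

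The strain pattern of these models was milder than that of the 2 genes, which were chosen for a strong one. For exh-1 the N2 libraries had 12.2 to 20.5 CPM, the highest lin-65 library had 4.05 CPM and the met-2 libraries had 28.3 to 48.3 CPM. C36C5.12 had 2.44 to 4.57 CPM in N2, at most 0.922 CPM in lin-65 and 6.39 to 17.3 CPM in met-2. F57G8.7 had 1.12 to 4.17 CPM in N2, at most 0.467 CPM in lin-65 and 6.05 to 12.9 CPM in met-2. In each of the 3 the strains were fully separated. So they were for T28A11.6, with 2.69 to 7.37 CPM in N2, at most 2.33 CPM in lin-65 and at least 11.7 CPM in met-2. For W06A11.4 the lowest met-2 library (3.384 CPM) lay just below the highest N2 library (3.389 CPM). All were picked by likeness to the 2 genes, so their separation is a description only.

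Of the 5 distinct models on these lists other than the 2 genes, 4 are on chromosome V, the chromosome of Y49G5A.1, which holds 19.3% of the models compared. The genes exh-1 and C36C5.12 are direct neighbours there (1 place apart among the listed models), and T28A11.6 is 27 places from exh-1. The count of 4 thus includes 1 adjacent pair and carries no test. T28A11.6 left the lists without the 2 libraries that stand apart. Y49G5A.1 lies 530 places from C36C5.12, and F57G8.7 lies 2842 places from Y49G5A.1. W06A11.4 is on chromosome II, and F59C6.18 is on chromosome I.

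**Figure D5:**
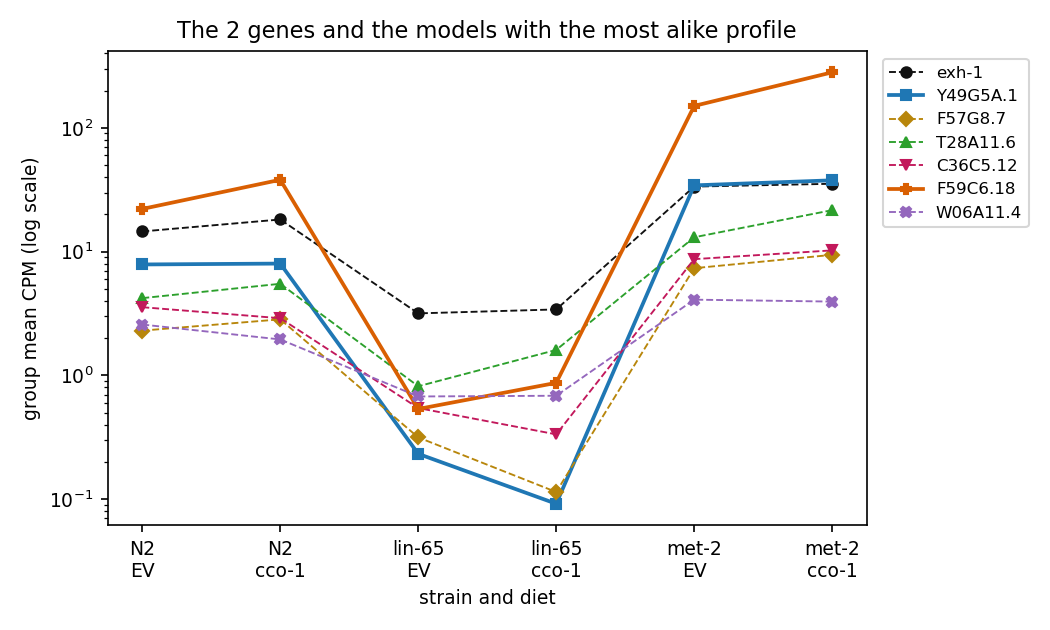
Group mean CPM (log scale) of F59C6.18 and Y49G5A.1 (solid lines) and of the 5 other models with the most alike profiles (dashed lines), by strain and diet. Lines join groups to guide the eye. All 7 are lowest in lin-65 and highest in met-2, and F59C6.18 spans from 0.536 to 281 CPM.

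Genes of the pathway in which MET-2 and LIN-65 act were measured beside them. Of 16 listed genes for methylation of histone H3 lysine 9, its readers and the nuclear edge, 0 were called by edgeR in lin-65 against N2 on either diet, beside backgrounds of 1.42% and 1.11%. At an unadjusted p under 0.05 there were 2 on empty vector and 4 under RNAi, and DESeq2 called 0 and 1 (lin-65 itself). In met-2 against N2, 1 rose and 3 fell on each diet. These 4 of 16 stand beside 30.5% of all models called on empty vector and 20.8% under RNAi, a share near the background. At an unadjusted p under 0.05 there were 8 and 5, and DESeq2 called 5 (hpl-2 in addition) and 4. On empty vector met-2 itself fell (log2 fold change -1.10 ± 0.33, edgeR adjusted p 0.0195, but 0.0551 to 0.0649 without N2 empty vector replicate 2 or met-2 empty vector replicate 2 or 3). The gene arle-14, for another partner of MET-2, fell (-1.16 ± 0.24, adjusted p 0.00252), as did lin-61, a reader of the mark (-1.03 ± 0.25, adjusted p 0.00722). The chromodomain gene cec-8 rose by 1.8 ± 0.30 (adjusted p 7.32e-04). On cco-1 RNAi met-2, arle-14 (adjusted p 0.0106, but 0.0518 without N2 cco-1 RNAi replicate 2) and cec-3 fell and cec-8 rose. The lists' medians in met-2 were -0.39 and -0.35, beside 0.04 and 0.03 over all models. Within each strain 0 of the 16 were called on cco-1 RNAi, beside backgrounds of 0.841% in N2, 1.11% in met-2 and 0.715% in lin-65, with 4 at an unadjusted p under 0.05 in N2, 0 in met-2 and 0 in lin-65, and DESeq2 called 0 in each.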

How the data were processed

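PolyA RNA of whole L4 worms was sequenced in 18 libraries. Per the labels' protocols, oligo-dT selection from cleared lysate preceded ScriptSeq v2 (Epicentre) library preparation. The submitters' processing notes name Bowtie 0.12.7 and DESeq with no role. No source used here names the genome build, annotation, counter or strand setting. The authors deposited raw counts per gene model, checked to be whole numbers. Of 20505 models, 20074 matched the WBcel235 annotation (Ensembl 115) by sequence name.

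The 2 genes, lists and tests were chosen with earlier results of these data known. Models were filtered with filterByExpr (15110 left) and fitted over all 18 libraries with edgeR 4.0.16 in R 4.3.3 (TMM, quasi-likelihood test, robust, two-sided, Benjamini-Hochberg adjustment over all models, threshold 0.05). The code was tested on simulated data. CPM uses library totals, and intervals are exact (95%). Log2 CPM for correlations used a prior count of 2. DESeq2 1.42.0, RLE factors, no filter, only the groups compared, a replicate block, 16 libraries and leaving out each library were alternatives. Named genes were the 2 genes, their 5 nearest listed models per side, the 5 models with the highest r, models within the pattern limits and the nearest outside, and the pathway list. Some others are given as examples, chosen after their values were seen. Relatives by protein sequence were planned and not analysed here.

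Replicate numbers were taken to pair 2 groups where every same-numbered pair of libraries had a correlation of deviations from the group means over 0.1. This held for N2 on the 2 diets (r = 0.125, 0.356 and 0.284) and for no other pair of groups compared.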

Additional observations from a re-analysis of the deposited data

How the results depend on the processing

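Neither gene passed the test for cco-1 RNAi, or for its difference between met-2 and N2, under any of the 24 alternatives (23 in lin-65). Adjusted p of F59C6.18 ranged from 0.0688 to 0.615 in N2 and from 0.117 to 0.782 in met-2. With the replicate block the N2 log2 fold changes were 0.60 for F59C6.18 (edgeR adjusted p 0.236) and -0.14 for Y49G5A.1 (adjusted p 0.856). Counts of called models moved far more, and the cause was not tested. For cco-1 RNAi in N2, met-2 and lin-65 and for the difference of response, DESeq2 called 547, 357, 280 and 153 models. Fits of only the groups compared called 2860, 34, 19 and 4, and fits of 16 libraries (without lin-65 empty vector replicate 1 and met-2 cco-1 RNAi replicate 1) called 2828, 300, 173 and 127. The replicate block gave 200 in N2 and 32 for the difference, which had 12 with no filter on low counts. Each N2 library correlated best with the lin-65 library of its own replicate number on both diets, but the lowest r was 0.0800 on empty vector and 0.0962 under RNAi, and the block gave 240 and 222 called models. For lin-65 against N2, DESeq2 called 372 on empty vector and 306 under RNAi, only the groups compared 51 and 475, and 16 libraries 523 and 546. For met-2 against N2, 16 libraries called 7517 on empty vector and only the groups compared called 1317 on cco-1 RNAi.

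Leaving out 1 library gave 50 to 863 called models for cco-1 RNAi in N2, 91 to 230 in met-2, 33 to 226 in lin-65 and 0 to 21 for the difference. It gave 99 to 342 and 93 to 248 for lin-65 against N2 on empty vector and cco-1 RNAi, and 2411 to 6095 and 1888 to 3877 for met-2 against N2. The sign of some member values turned: Y49G5A.1 ranged from -0.38 to 0.15 in N2 and from -0.57 to 0.52 in met-2, and the difference ranged from -0.15 to 0.58 for F59C6.18 and from -0.41 to 0.69 for Y49G5A.1. With 16 libraries Y49G5A.1 was -0.56 in met-2, and the differences were -0.16 for F59C6.18 and -0.41 for Y49G5A.1. The N2 to lin-65 ratio of Y49G5A.1 on cco-1 RNAi ranged from 55.3 to 136. For counts of models with the strain pattern and for likeness, leaving out the same 2 libraries was chosen after seeing the data. With 0 to 13 counts per lin-65 library, depth limits every value of both genes in that strain.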
